A study of Homo sapiens and Mus musculus with 12 samples.

Results

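Binding of SPI1, GFI1 and LSD1 was examined at 7 genes, the RUNX transcription factors RUNX1, RUNX2 and RUNX3, their partner CBFB, and the corepressors RUNX1T1, CBFA2T2 and CBFA2T3. A peak was taken when any base of it lay in the GENCODE release 44 gene body (GRCh38) or within 20 kb on either side. This gave 22 of the 12513 peaks in the 5 peak lists, at 7 of 20033 protein-coding genes. THP1 cells, a monocytic leukemia line that carries a KMT2A fusion, gave a SPI1 and a GFI1 ChIP. K562 cells, a BCR::ABL1-positive line with erythroid features, were studied after stable expression of Cas9 and transduction with sg-NT, a non-targeting sgRNA, or with sg-LSD1. LSD1 and GFI1 ChIPs came from sg-NT cells and a GFI1 ChIP from sg-LSD1 cells. Cells were fixed with the crosslinkers DSG and formaldehyde, and each ChIP used 5 μg antibody. Each condition had 1 library, so all values below are descriptions of single libraries, without replicate error and without tests. Loss of LSD1 in the sg-LSD1 cells cannot be read from a GFI1 peak list, but the paper reports strongly decreased LSD1 protein by western blot.

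RUNX factors bind DNA through the runt domain, and CBFB, which does not touch DNA itself, stabilises that binding. RUNX1 is required for the emergence of hematopoietic stem cells and for megakaryocyte maturation, RUNX2 for bone formation, and RUNX3 acts in lymphoid and neuronal cells. Each RUNX gene has a distal and a proximal promoter. RUNX1T1, CBFA2T2 and CBFA2T3 form the ETO family, which recruits NCOR and histone deacetylases without binding a DNA sequence of its own. In acute myeloid leukemia RUNX1 is fused to RUNX1T1 or CBFA2T3, and CBFB to MYH11. SPI1 is an ETS-family activator of myeloid genes, GFI1 a zinc-finger repressor, and LSD1 a histone demethylase that GFI1 recruits.

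The summit is the base of a peak with most fragments over it. The sequences below are 200 bases around summits, on the plus strand of GRCh38. Shown are the site upstream of CBFA2T3 and the site in CBFA2T2 that were called in more than 1 list, and the strongest peak, by the −log10 p-value of the peak caller, at RUNX1 and RUNX2. The strongest SPI1 peak at CBFA2T2 was added after its values were seen. Capitals mark letters that match a core on either strand. The cores searched were AATCAC for GFI1, GAGGAA for the ETS family, TGTGGT for RUNX factors, AGATAA for the family of GATA factors, and CAGCTG for the E-box.
CBFA2T3 K562 sg-NT LSD1 chr16:88992548-88992747: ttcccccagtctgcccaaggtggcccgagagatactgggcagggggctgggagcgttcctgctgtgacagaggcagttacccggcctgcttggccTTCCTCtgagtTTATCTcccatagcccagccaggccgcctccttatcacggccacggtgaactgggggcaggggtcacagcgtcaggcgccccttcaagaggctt
CBFA2T2 K562 sg-NT LSD1 chr20:33490714-33490913: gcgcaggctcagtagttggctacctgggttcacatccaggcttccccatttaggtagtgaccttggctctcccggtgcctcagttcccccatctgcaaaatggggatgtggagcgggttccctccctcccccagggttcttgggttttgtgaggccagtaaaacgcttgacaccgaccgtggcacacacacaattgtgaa
CBFA2T2 THP1 SPI1 chr20:33476143-33476342: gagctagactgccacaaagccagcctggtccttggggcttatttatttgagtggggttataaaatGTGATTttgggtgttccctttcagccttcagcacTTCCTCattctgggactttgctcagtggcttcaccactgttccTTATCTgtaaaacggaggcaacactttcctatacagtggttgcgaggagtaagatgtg
RUNX1 K562 sg-NT LSD1 chr21:35026877-35027076: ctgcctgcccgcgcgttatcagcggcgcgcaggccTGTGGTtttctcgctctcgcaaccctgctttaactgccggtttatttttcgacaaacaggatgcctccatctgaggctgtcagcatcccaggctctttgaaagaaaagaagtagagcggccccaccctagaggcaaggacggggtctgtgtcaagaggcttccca
RUNX2 THP1 GFI1 chr6:45421966-45422165: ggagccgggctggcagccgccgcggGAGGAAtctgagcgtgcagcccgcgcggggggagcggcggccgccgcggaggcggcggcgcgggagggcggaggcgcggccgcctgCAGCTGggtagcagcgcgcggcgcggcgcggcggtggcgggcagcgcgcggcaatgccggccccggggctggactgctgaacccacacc
The CBFA2T3 sequence carries the letters of an ETS core and of a GATA core, starting 4 bp before and 7 bp after the LSD1 summit. In the SPI1 sequence upstream of CBFA2T2, the letters of the ETS core begin at the summit itself, and those of a GFI1 and a GATA core begin 34 bp before and 43 bp after it. The sequence in RUNX1 intron 2 holds a RUNX core 64 bp before the LSD1 summit. At RUNX2, an E-box core starts 12 bp after the summit. The shared CBFA2T2 sequence holds none of the 5 cores. A match of letters is a description and does not show which protein bound.

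Of the 7 genes, 1 had a SPI1 peak and 3 had a GFI1 peak in THP1 cells. In K562 cells, 5 had an LSD1 peak in sg-NT cells and 1 had a GFI1 peak in each of the sg-NT and sg-LSD1 cells. The share of all protein-coding genes with a peak in the same kind of window was 9.57% for SPI1, 17.5% for THP1 GFI1, 29.9% for LSD1, 2.83% for sg-NT GFI1 and 0.928% for sg-LSD1 GFI1. With 7 genes, 1 gene is 14.3%, the smallest share above 0 that they can show, so little can be read from the counts of 1 for SPI1 and for both K562 GFI1 libraries. The windows of the 7 genes were long, adding to 2.38 Mb. Per Mb they held 0.840 SPI1 peaks, against 0.837 in the windows of all protein-coding genes. The densities were 2.94 against 1.66 for THP1 GFI1 and 4.62 against 3.29 for LSD1. They rested on 7 and 11 peaks. RUNX2, 1 of the 5 genes with an LSD1 peak, had it at a start of the overlapping gene SUPT3H. RUNX3 and RUNX1T1 had no peak in any of the 5 lists.

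**Figure D1:**
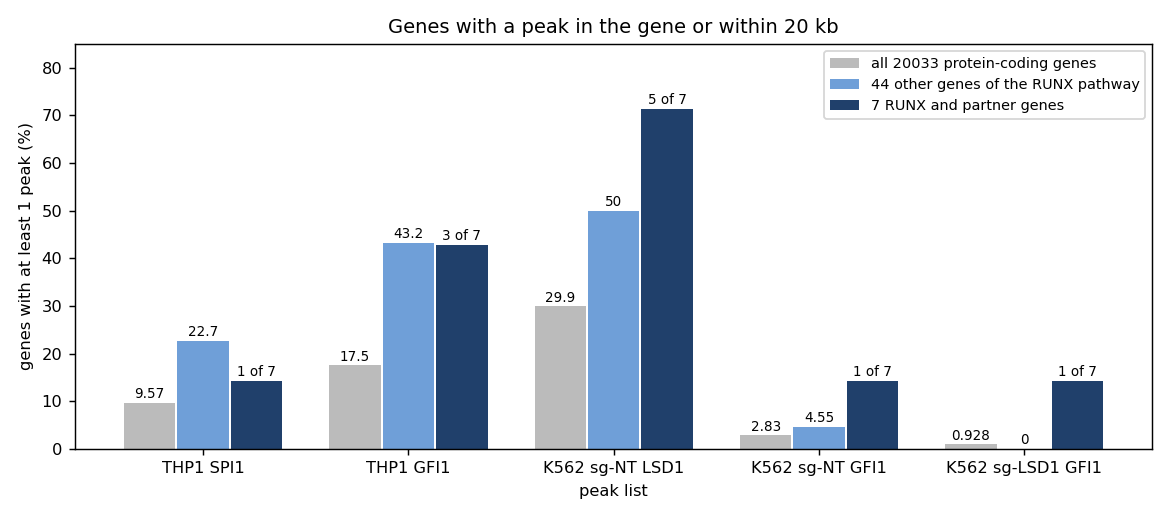
Share of genes, in percent, with at least 1 peak in the gene or within 20 kb, for each of the 5 peak lists. Bars stand for all protein-coding genes, 44 other genes of the RUNX pathway and the 7 RUNX and partner genes, whose bars carry their counts. The LSD1 list reached 5 of the 7 genes against 29.9% of all genes, while 3 lists reached 1 of the 7. For RUNX2, 1 of these 5, the only LSD1 summit was at a start of the overlapping gene SUPT3H.

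For each peak the lists give the fold, which is the fragments at the summit over the local background with 1 added to each, and the −log10 p of the same excess. Both depend on the depth of a library, so they are compared within a list. They were solved for the number of fragments at the summit, which ran from 8 to 44 over the 22 peaks, with a median of 12.5. Fold ran from 4.38 to 21.0. Of the 22 peaks, 15 lay in a gene body and 7 in the flanks. The lists do not show signal below the threshold of the peak caller, a −log10 p of 5, which at the genome-wide background required 5 or 6 fragments. More were required where the local background was higher, so a gene without a peak can still hold sites below the threshold. No read totals were at hand, and the genome-wide background ran from 0.404 to 0.630 fragments.

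RUNX1 (ENSG00000159216, chromosome 21, minus strand) held 7 peaks, 4 of GFI1 in THP1 cells and 3 of LSD1 in K562 cells, and no SPI1 peak and no GFI1 peak of K562 cells. None of the 7 lay within 1000 bp of a RUNX1 start, and none overlapped a peak of another list. The annotated gene body spans 1217 kb because 1 protein-coding transcript starts 955 kb upstream of the start of the canonical transcript, which spans 262 kb. Only 3 of the 7 peaks lay in the canonical span, 2 of LSD1 and 1 of GFI1.

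The strongest of the 7 was the LSD1 peak at chr21:35026750-35027331, in intron 2 of the canonical transcript. Its summit lay 22.3 kb downstream of the canonical start, which is the start at the distal promoter. This peak had 12.9-fold enrichment (−log10 p 24.2) and 20 fragments (exact Poisson 95% interval 12.2 to 30.9, counting error only). It ranked 700 of 6548 LSD1 peaks. The second LSD1 peak in this intron lay 18789 bp upstream of the nearest start at the proximal promoter, with 4.83-fold enrichment (−log10 p 8.12). The third, with 4.38-fold enrichment (−log10 p 5.77), lay 437 kb upstream of the canonical start and ranked 6394, close to the calling threshold. LSD1 thus had 1 peak among the stronger ones of its list in RUNX1 and 2 among the weaker ones.

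In THP1 cells, the strongest RUNX1 peak of GFI1 was chr21:35478547-35479046, with 10.8-fold enrichment (−log10 p 18.6), 15 fragments and rank 761 of 3461. It lay 429 kb upstream of the canonical start, in an intron of the long transcript. The next had folds of 8.76 and 8.09 and lay 689 and 515 kb upstream. These 3 GFI1 peaks are in RUNX1 only by the long transcript. The single GFI1 peak in the canonical span was in intron 6, with 6.82-fold enrichment (−log10 p 11.4). GFI1 in THP1 cells and LSD1 in K562 cells came closest in the far upstream part, where the strongest GFI1 summit and the weakest LSD1 summit were 7.16 kb apart. In the canonical span they were at least 72.7 kb apart. Cell line and antibody both differ here and cannot be told apart.

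RUNX1 has an exceptionally long window. Of the 225 protein-coding genes whose windows were at least 0.5 times as long, 24.0% had a THP1 GFI1 peak and 1.33% had 4 or more. Of the 4 GFI1 peaks of RUNX1, 3 count only by the long transcript. Here and below, such pools reach down to windows 0.5 times as long, so a count is set partly against shorter windows. For LSD1, 25.8% had a peak and 4% had 3 or more. The nearest GFI1 peak of sg-NT cells was 5554 kb from the RUNX1 gene body, and the nearest SPI1 peak 146 kb.

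**Figure D2:**
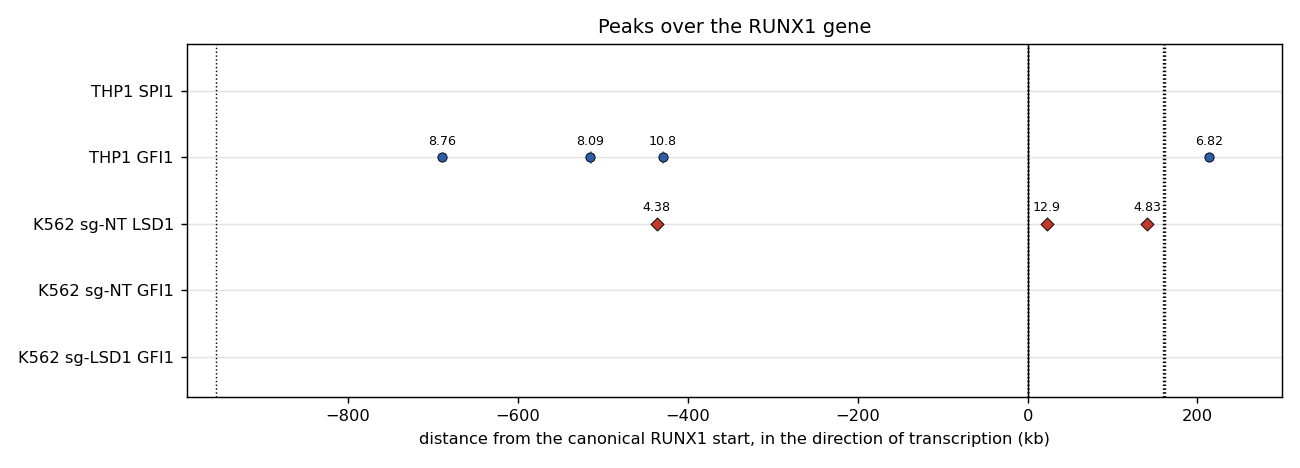
Peaks over RUNX1 in the 5 lists, by distance of the summit from the canonical start in kb, in the direction of transcription. The solid line marks the canonical start, dotted lines other starts of protein-coding transcripts, and numbers the fold. GFI1 of THP1 cells had 3 summits between 429 and 689 kb upstream, whereas the LSD1 peak with a fold of 12.9 lay 22.3 kb downstream of the start.

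RUNX2 (ENSG00000124813, chromosome 6, plus strand) held 4 peaks from 3 lists. GFI1 of THP1 cells had 2. The stronger, chr6:45421844-45422417, had its summit 420 bp upstream of the first start at the proximal promoter, with 7.41-fold enrichment (−log10 p 11.3) and 10 fragments. The 200 bases around it, printed above, had a GC content of 83%. The second GFI1 summit lay 2600 bp further on, with 5.00-fold enrichment (−log10 p 8.09). In the table of RefSeq promoters (GRCh38.p14), the proximal RUNX2 window held the stronger GFI1 summit, and no summit of any list fell in the distal one. The table held 7 windows for 5 of the genes and none for CBFB and RUNX1T1, and the proximal RUNX2 window was the only one of the 7 with a summit. The windows of RUNX1, CBFA2T2 and CBFA2T3 did not cover the canonical starts of these genes. The summits near the canonical starts of CBFA2T2 and CBFA2T3, given below, therefore could not fall in a window.

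No GFI1 peak of K562 cells lay at the proximal RUNX2 promoter. LSD1 of sg-NT cells had 1 peak in RUNX2, chr6:45377815-45378149, with 5.43-fold enrichment (−log10 p 8.80). It lay in intron 2 of the canonical transcript, but 107 bp from a start of SUPT3H, a subunit of a histone acetyltransferase complex whose gene overlaps RUNX2, so that the nearest start was not one of RUNX2. The 200 bases around this summit had a GC content of 73%. The only GFI1 peak of sg-LSD1 cells at the 7 genes was chr6:45323843-45324106, with 5.82-fold enrichment (−log10 p 8.13) and 8 fragments (exact Poisson 95% interval 3.45 to 15.8). It lay 4296 bp upstream of the canonical RUNX2 start, inside SUPT3H, and ranked 119 of 160. The sg-NT list had no GFI1 peak within 677 kb of the RUNX2 gene body. Whether 8 fragments in 1 library differ from what sg-NT cells had there cannot be read from lists that hold called peaks only.

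RUNX3 (ENSG00000020633, chromosome 1, minus strand) had no peak. The nearest was an LSD1 peak 204 kb from its gene body, followed by a THP1 GFI1 peak at 295 kb. Its window of 106 kb was the shortest of the 7. Of 13824 genes with a window at least 0.5 times as long, 31.8% had an LSD1 peak and 19.9% a THP1 GFI1 peak.

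CBFB (ENSG00000067955, chromosome 16, plus strand), the partner that all 3 RUNX factors share, had LSD1 peaks only. The peak chr16:67029611-67029854 had its summit 584 bp downstream of the canonical start, in coding exon 2, with 7.27-fold enrichment (−log10 p 11.2). The other, chr16:67011329-67011586, lay 17.7 kb upstream, with 7.36-fold enrichment (−log10 p 11.3). Both had 11 fragments and stood near the middle of the LSD1 list, at ranks 3416 and 3254 of 6548. The start nearest to the upstream summit was that of CES4A, at 10.9 kb, so its assignment to CBFB rests on the window. The nearest GFI1 peak of THP1 cells was 69.7 kb from CBFB. Among 12738 genes with a window at least 0.5 times as long, 31.7% had an LSD1 peak and 11.4% had 2 or more.

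**Figure D3:**
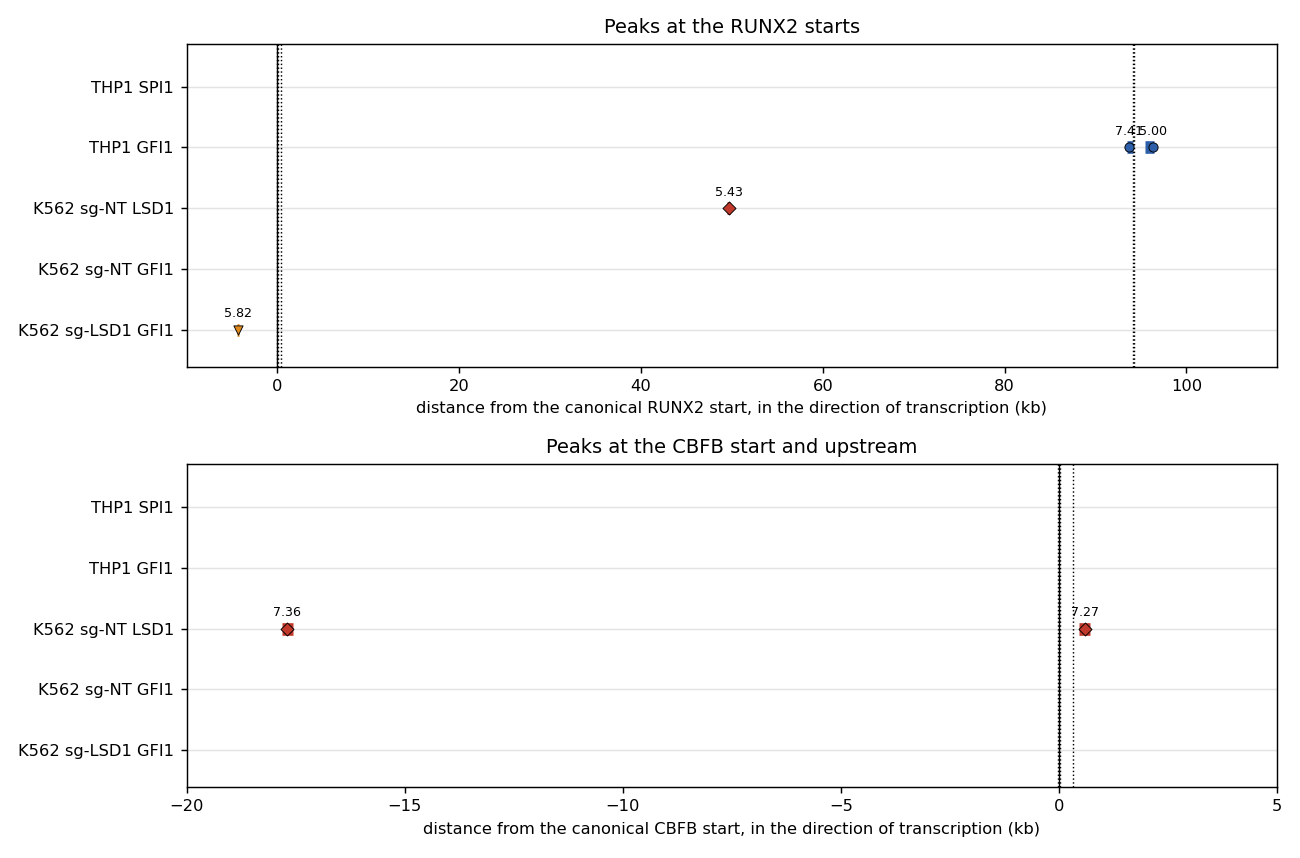
Peaks at RUNX2 (top) and CBFB (bottom) in the 5 lists, by distance of the summit from the canonical start in kb. Bars are the peaks, symbols the summits, numbers the fold, the solid line the canonical start and dotted lines other coding starts. At RUNX2 both THP1 GFI1 peaks, with folds of 7.41 and 5.00, sit at the proximal starts and the other lists do not, and at CBFB only LSD1 has peaks.

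Among the ETO-family corepressors, CBFA2T3 (ENSG00000129993, chromosome 16, minus strand) had the strongest LSD1 peak and the only GFI1 peak of sg-NT cells at the 7 genes. CBFA2T3 is known as a corepressor of the TAL1 and GATA1 complex in erythroid and megakaryocytic cells. The LSD1 peak, chr16:88992335-88993492, was 1158 bp wide, with 21.0-fold enrichment (−log10 p 53.9) and 44 fragments (exact Poisson 95% interval 32.0 to 59.1), and ranked 75 of 6548. Its summit lay 15.4 kb upstream of the canonical start, inside the non-coding gene ENSG00000259989. The GFI1 peak of sg-NT cells, chr16:88992477-88993118, lay wholly within it, sharing 642 bp, with summits 59 bp apart. It had 5.67-fold enrichment (−log10 p 9.20) and 13 fragments (6.92 to 22.2), and ranked 333 of 498. The site was therefore among the strongest of the LSD1 list and in the weaker part of the GFI1 list. Over all sg-NT GFI1 peaks, 78.3% overlapped an LSD1 peak.

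In sg-LSD1 cells no GFI1 peak was called at this CBFA2T3 site, and the nearest was 4986 kb from the gene body. Scaled to the genome-wide background of that library, the 13 fragments of sg-NT cells would be 15.8, with a counting interval of 8.40 to 27.0 (exact Poisson 95%). At the local background scaled in the same way, 1.78 fragments, 10 were needed to pass the threshold, which lies inside that interval. Of all 498 sg-NT GFI1 peaks, 10.2% (Wilson 95% interval 7.88 to 13.2, counting error only) overlapped a peak in the sg-LSD1 list of 160. The site was thus like most sg-NT GFI1 sites in having none. Within counting error, an unchanged signal could also have stayed below 10 fragments, so a difference at this site cannot be read from the lists.

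At the CBFA2T3 start itself, LSD1 had a peak in K562 cells with its summit 16 bp downstream, in the untranslated part of exon 1, with 6.14-fold enrichment (−log10 p 9.04). A second LSD1 summit lay 1920 bp upstream, with 4.67-fold enrichment (−log10 p 7.24). The single THP1 GFI1 peak at the gene, chr16:88977965-88978388, had its summit between these, 955 bp upstream of the start, with 6.74-fold enrichment (−log10 p 9.90) and 9 fragments. It was 971 and 965 bp from the LSD1 summits on either side and overlapped neither of those peaks. THP1 GFI1 had no peak at the upstream site that GFI1 and LSD1 shared in K562 cells. Of 9329 genes with a window at least 0.5 times as long as that of CBFA2T3, 31.8% had an LSD1 peak and 4.67% had 3 or more. A THP1 GFI1 peak was found at 22.0% of them and a sg-NT GFI1 peak at 3.61%.

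CBFA2T2 (ENSG00000078699, chromosome 20, plus strand) was the only one of the 7 genes with SPI1 peaks. The stronger, chr20:33476017-33476391, lay 13.9 kb upstream of the canonical start, with 19.2-fold enrichment (−log10 p 38.8) and 26 fragments (exact Poisson 95% interval 17.0 to 38.1), and ranked 61 of 1846. The weaker, chr20:33490467-33490959, lay 665 bp downstream of the start in intron 1, with 5.25-fold enrichment (−log10 p 7.16), 8 fragments and rank 1734. The SPI1 peak near the start was thus among the weakest of its list, and the upstream peak among the strongest. Of 5843 genes with a window at least 0.5 times as long, 14.0% had a SPI1 peak and 1.64% had 2 or more. For LSD1, which had 2 peaks at CBFA2T2, 31.5% of these genes had a peak and 11.6% had 2 or more.

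LSD1 of K562 cells was also found near the CBFA2T2 start. The peak chr20:33490696-33490945 had 9.82-fold enrichment (−log10 p 16.8) and 15 fragments, and all of its 250 bp lay in the weaker SPI1 peak, with summits 52 bp apart. A second LSD1 peak in intron 1, with its summit 1273 bp downstream of the start, had 6.14-fold enrichment (−log10 p 8.82), and held ETS and GATA cores in the 50 bp centred on it. LSD1 had no peak at the upstream SPI1 site, and its nearest summit was 14.6 kb away. Neither GFI1 of THP1 cells nor GFI1 of K562 cells had a peak at CBFA2T2. SPI1 was profiled in THP1 cells and LSD1 in K562 cells, so their overlap joins 2 cell lines. Over all SPI1 peaks, 2.76% overlapped a K562 LSD1 peak.

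**Figure D4:**
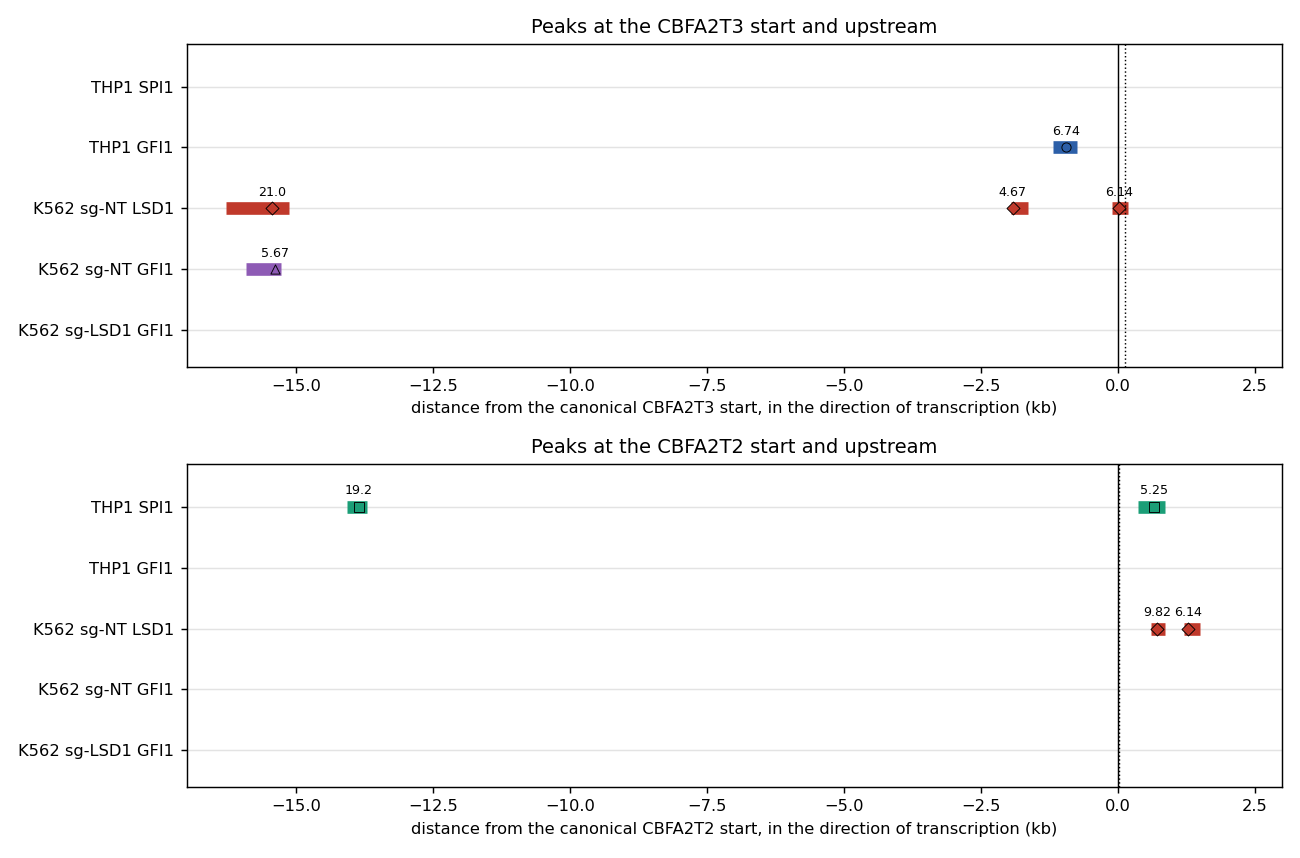
Peaks at CBFA2T3 (top) and CBFA2T2 (bottom) in the 5 lists, by distance from the canonical start in kb, in the direction of transcription. Bars are the peaks, symbols the summits, numbers the fold, the solid line the canonical start and dotted lines other coding starts. The LSD1 peak with a fold of 21.0 and the sg-NT GFI1 peak with a fold of 5.67 coincide 15.4 kb upstream of CBFA2T3, and the SPI1 peak with a fold of 19.2 stands alone upstream of CBFA2T2.

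RUNX1T1 (ENSG00000079102, chromosome 8, minus strand), the fusion partner of RUNX1 and the third ETO-family gene, had no peak in any list. The nearest was a THP1 GFI1 peak 422 kb from its gene body, and the nearest LSD1 peak was 914 kb away. Of 6322 genes with a window at least 0.5 times as long, 31.7% had an LSD1 peak. For THP1 GFI1 the share of these genes was 23.5% and for SPI1 13.5%, so having no peak in a list was usual. Summed over the 5 lists, CBFA2T2 had 4 peaks, CBFA2T3 had 5 and RUNX1T1 had none. These sums join unlike factors and cell lines and do not show a difference within the ETO family.

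Across the 7 genes, 2 sites were called in more than 1 list, LSD1 with GFI1 at CBFA2T3 in sg-NT K562 cells and LSD1 with SPI1 at CBFA2T2 across cell lines. Neither of the 2 SPI1 peaks overlapped a THP1 GFI1 peak, against 10.5% of all SPI1 peaks. None of the 7 THP1 GFI1 peaks overlapped a K562 LSD1 or sg-NT GFI1 peak, against 8.70% and 2.34% of that list. With 7 peaks, shares of up to 35.4% lie within the Wilson 95% interval, so no difference from the list was detectable. Of the 11 LSD1 peaks, 1 overlapped a sg-NT GFI1 peak, against 5.96% of all LSD1 peaks.

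Of the 22 summits, 6 lay within 1000 bp of a start of their own gene, counting protein-coding transcripts. Those of GFI1 in THP1 cells were at RUNX2 and CBFA2T3, those of LSD1 at CBFB, CBFA2T2 and CBFA2T3, and that of SPI1 at CBFA2T2. With the LSD1 summit at the SUPT3H start, 4 of 11 LSD1 summits were at a promoter, against 25.2% of all LSD1 summits. For THP1 GFI1 it was 2 of 7 against 25.9%, and for SPI1 1 of 2 against 13.4%.

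A core was found in the 50 bp centred on the summit in 4 of the 22. These were the strong SPI1 peak at CBFA2T2, the proximal RUNX2 peak of THP1 GFI1, and the LSD1 peaks at CBFA2T2 and CBFA2T3 with both ETS and GATA letters. By list they were 1 of 2 for SPI1, 1 of 7 for THP1 GFI1 and 2 of 11 for LSD1. Over all summits of these lists, the shares with a core were 49.5%, 27.2% and 23.1%. The single K562 GFI1 summits had none, against 34.3% of all sg-NT and 35.6% of all sg-LSD1 GFI1 summits. No summit of the 7 genes had AATCAC there, which 10.00% of all THP1 GFI1 summits and 9.84% of all sg-NT GFI1 summits had. TGTGGT was likewise found in none of the 22, against 6.33% of all THP1 GFI1 and 5.70% of all LSD1 summits. With so few summits such shares can easily give none, so no difference from the lists was detectable for either core. In the 200 bp window, AATCAC was present at the strongest RUNX1 summit of THP1 GFI1. GAGGAA was present in 43.2% of all SPI1 summits and AGATAA in 7.71% of all LSD1 summits. In the 7 RefSeq promoter windows of 300 bp, TGTGGT occurred in the distal windows of RUNX2 and RUNX3 and in none of the other 5, against 13.1% of 35116 promoters. No peak of any list overlapped these distal windows.

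To place the 7 genes, 44 other genes of the RUNX pathway were examined in the same windows. A peak given for one of them could lie in the gene body or in a flank of 20 kb. Its distance from the gene was not measured. Of these, 10 had a SPI1 peak, 19 a THP1 GFI1 peak, 22 an LSD1 peak and 2 a sg-NT GFI1 peak, and none had a sg-LSD1 GFI1 peak. These were 22.7%, 43.2%, 50% and 4.55% of the 44, against 9.57%, 17.5%, 29.9% and 2.83% of all protein-coding genes. For sg-LSD1 GFI1 the share of all protein-coding genes was 0.928%, so little can be read from none of the 44. Among 17 corepressors and coactivators, 6 had THP1 GFI1 and 7 had LSD1 peaks. The strongest THP1 GFI1 peak, with a fold of 22.7, was in the window of CREBBP, an acetyltransferase that RUNX1 recruits. The strongest LSD1 peak, chr5:141605716-141606509 with a fold of 10.6, was in the window of HDAC3, the deacetylase of the NCOR complex. The strongest SPI1 peak of this group was at SIN3A, with a fold of 7.12.

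Of 15 partners of RUNX1 in complexes on DNA, 4 had SPI1, 6 had THP1 GFI1, 10 had LSD1 and 1 had sg-NT GFI1 peaks. LDB1, which joins GATA1 and TAL1 complexes, had the strongest LSD1 peak, with a fold of 20.2. The SPI1 peak at FLI1 had a fold of 13.3 and the THP1 GFI1 peak at MYB one of 12.3. The sg-NT GFI1 peak at LMO2, with a fold of 4.12, was the weakest of its list, at rank 498. Among 12 targets of RUNX1, 4 had SPI1, 7 had THP1 GFI1, 5 had LSD1 and 1 had sg-NT GFI1 peaks. The strongest LSD1 and sg-NT GFI1 peaks of these targets were in the window of CCND2, a cyclin of the G1 phase. They were chr12:4320720-4321277 and chr12:4320712-4321221, with folds of 40.9 and 28.1 and ranks of 5 and 4. As for LMO2 and the other pathway genes, whether they lay in the gene or in a flank was not examined.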

How the data were processed

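Peak lists were available for 5 ChIP-seq libraries, 1 per condition. The 3 input libraries and 4 mouse libraries were not used here. Per their methods and processing notes, the authors used Trim Galore 0.6.1 for trimming, Bowtie2 2.5.4 for mapping against GRCh38, Picard 3.1.0 to drop duplicates and MACS2 2.2.9.1 for calling at p under 1e-05, then took out blacklisted regions. Whether input served as control is not stated in the sources used here. The deposited fold is a ratio to the local background, and the deposited −log10 p-value and −log10 q-value are those of MACS2. The deposited score was not used.

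Windows and starts came from GENCODE release 44. Peaks were shared with at least 1 bp in common. Fragments at the summit were solved from fold, as (pileup + 1) / (background + 1), and the Poisson p, which gave a whole number for 100% of peaks (tolerance 0.02% of −log10 p). The genome-wide background was the smallest value found at 5 or more peaks. Named were the strongest peak per gene and list, all K562 GFI1 peaks, sites called in more than 1 list and peaks within 1000 bp of a start, and for the pathway groups the strongest peak per list. Other peaks that are named were added after their values were seen. Genes, lists and settings were chosen with earlier results of these data known. Alternatives were other windows, thresholds, overlap rules, motif windows and promoter distances. Scripts were tested on simulated data. Software was Python 3.11.15 with pysam 0.24.0, scipy 1.17.1, matplotlib 3.10.9 and numpy 2.4.6. Promoter windows were from RefSeq (GRCh38.p14). Some sequences and 1 pathway gene's values are not reported here.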

Additional observations from a re-analysis of the deposited data

How the results depend on the processing

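Of 85 alternative values for 22 results, 69 stayed within 1.5 times the value reported and 16 did not. Some of the 69 could not have moved. The lowest −log10 q of a peak at the 7 genes was 2.73, so a cut at 2 removed none. Overlap counts of 0 could not rise under a stricter rule. With the gene body only, the peaks at the 7 genes were 1 for SPI1 and 0 for both K562 GFI1 libraries, since the sg-NT GFI1 peak at CBFA2T3 and the sg-LSD1 peak at RUNX2 lie in the flanks. A flank of 50 kb gave 3 sg-NT GFI1 peaks. With canonical transcripts in place of gene bodies, THP1 GFI1 had 4 peaks, the 3 far upstream of RUNX1 being lost. At a −log10 p of at least 8, SPI1 kept 1 peak. With peaks up to 500 bp apart counted as shared, 1 THP1 GFI1 peak, at CBFA2T3, had a K562 LSD1 neighbour. The motif counts depended on the window: THP1 GFI1 summits with a core rose from 1 to 5 in 200 bp and 6 in the whole peak, LSD1 summits from 2 to 7 and 7, and the single sg-NT and sg-LSD1 GFI1 summits from 0 to 1 in both windows. The sg-LSD1 GFI1 summit at RUNX2 counted as 1 promoter summit at 5000 bp. Counting only peaks whose nearest coding start belongs to one of the 7 genes, an alternative chosen after seeing the data, left 20 of 22 and removed LSD1 peaks only. RUNX2 then kept no LSD1 peak. A pseudocount of 0 gave a whole number of fragments at none of the 22 peaks, so it has no value here. No paired analysis was possible because each condition had 1 library and no test was made. Depth limits these lists to sites with at least 5 or 6 fragments at the summit, and more where the local background is higher.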

Other observations

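Just outside the 20 kb windows, a second site upstream of CBFA2T3 was called for both LSD1 and GFI1 in sg-NT K562 cells. The LSD1 peak, chr16:89004004-89004826, had its summit 27.1 kb upstream of the gene, with 19.0-fold enrichment (−log10 p 40.4) and 30 fragments. The GFI1 peak, chr16:89003737-89004552, had 11.7-fold enrichment (−log10 p 20.6) and 16 fragments, above the values of the GFI1 peak 15.4 kb upstream. The nearest coding start was that of CBFA2T3, and no GFI1 peak of sg-LSD1 cells overlapped it. GFI1 and LSD1 of sg-NT cells also shared a site 40.2 kb beyond the end of CBFA2T2, with folds of 10.3 and 14.1, whose nearest coding start was that of E2F1, 3811 bp from the GFI1 summit. These sites were chosen after their values were seen.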
